A study of Homo sapiens with 9 samples.

Results

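The 10 genes described here encode the 5 DNA-binding subunits of the transcription factor NF-kB (NFKB1, NFKB2, RELA, RELB and REL), 2 inhibitors that hold it in the cytoplasm (NFKBIA and NFKBIE), 2 ubiquitin enzymes of the pathway (TNFAIP3 and BIRC3) and the adhesion molecule ICAM1. They were listed by name, though with earlier results of these data known, and each name stood on 1 line of a table of 62703 genes. Of the 10, 9 averaged 1 TPM or more and were tested, among 13443 genes tested in all. TPM is a read count corrected for gene length and scaled to a common total, so levels of different genes can be compared. REL, at a mean of 0.680 TPM, was the member below that minimum.

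The cells are labelled HepG2, an established line from a human hepatocellular carcinoma, and every group was given the saturated fatty acid palmitic acid at 750 µM for 24 h. In 3 libraries, curcumin, a polyphenol of turmeric, at 20 µM and CuCl2 at 5 µM followed for 12 h. In another 3, curcumin at 20 µM followed for 12 h without CuCl2. The last 3 were from cells that had palmitic acid alone. Neither cells without palmitic acid nor a vehicle is described, nor a further 12 h for palmitic acid alone, so the added time cannot be told apart from curcumin. The labels do not say whether replicates were separate cultures, so the p-values speak for the scatter of these libraries, and that scatter may be technical.

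TPM does not carry sequencing depth, which is therefore unknown. The number of genes at 1 TPM or more was 13208 to 13737 per library. The cell label was set against marker genes. All 10 hepatocyte markers had a mean under 1 TPM, and ALB, TTR, APOB, APOA2 and FGB were listed at 0 in every library, so these markers go against a hepatocyte-like line. The keratin genes KRT8 and KRT18 averaged 892 and 862 TPM. With EPCAM and CDH1, both under 1 TPM, they summed to 1534 to 1625 TPM with curcumin and CuCl2, 1483 to 1636 TPM with curcumin, and 2002 to 2267 TPM with palmitic acid alone. Other cell types known for some of the 10 genes were also looked for. All 7 endothelial markers were under 1 TPM, with KDR and SELE listed at 0. Their sum was at most 0.770 TPM with curcumin and CuCl2, 0.640 TPM with curcumin and 1.3 TPM with palmitic acid alone. Of 8 leukocyte markers, 5 were under 1 TPM and CD3E and MS4A1 were listed at 0. CD68, CD14 and CSF1R averaged 7.58, 1.51 and 1.11 TPM. All 8 summed to 9.06 to 10.4 TPM with curcumin and CuCl2, 9.62 to 11.6 TPM with curcumin and 9.44 to 12.6 TPM with palmitic acid alone. Of 6 fibroblast markers, 5 were under 1 TPM and PDGFRA was listed at 0. COL1A1 averaged 11.1 TPM and made up most of the sum. All 6 summed to 9.73 to 12.9 TPM with curcumin and CuCl2, 12.1 to 15.8 TPM with curcumin and 8.78 to 13.7 TPM with palmitic acid alone.

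NF-kB subunits pair into dimers that inhibitor proteins of the IκB family keep out of the nucleus until a kinase complex, switched on by cytokine and innate immune receptors, marks the inhibitor for destruction. The freed dimer binds κB sites in promoters, and its targets include parts of the pathway itself, among them NFKBIA, whose product recaptures the dimer, and TNFAIP3, whose product damps the signal. A separate, slower branch runs through NFKB2 and RELB, and in liver cells the pathway is known for inflammatory and acute phase genes.

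Matches to the κB site can be read in the promoters of several of these genes. The RefSeq promoter table (GRCh38.p14, 250 bases before to 50 bases after each start) held 12 windows for 8 of the 10 genes, all but RELB and NFKBIE. The κB consensus motif of 10 bases was searched on both strands. It stood in 7 of the 12 windows (58.3%), belonging to NFKB1, NFKB2, REL, NFKBIA, TNFAIP3 and BIRC3, and in 7.73% of all 35116 windows. Known targets of NF-kB are among these genes, so this is not an independent comparison with all windows. A shorter motif, GGAATTTCC or its reverse complement GGAAATTCC, was added after the sequences had been seen. It stood in 4 of the 12 windows (33.3%), those of NFKB1, REL, NFKBIA and ICAM1, and in 0.461% of all windows. As these sequences were seen first, the 2 shares are not an independent comparison. In NFKB1, REL and NFKBIA the shorter motif lay inside the consensus match. The 2 windows of RELA held neither. The 250 bases before the start are shown for ICAM1, BIRC3 and TNFAIP3, which had the largest differences between groups, and for the classical feedback gene NFKBIA. They run in the direction of transcription, with each match in capitals.
ICAM1, chr19:10270870-10271119, plus strand: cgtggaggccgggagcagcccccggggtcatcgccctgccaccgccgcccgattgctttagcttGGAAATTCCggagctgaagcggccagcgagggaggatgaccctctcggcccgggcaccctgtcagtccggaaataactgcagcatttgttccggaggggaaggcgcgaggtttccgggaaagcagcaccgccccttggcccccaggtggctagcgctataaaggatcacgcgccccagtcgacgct
BIRC3, chr11:102317234-102317483, plus strand: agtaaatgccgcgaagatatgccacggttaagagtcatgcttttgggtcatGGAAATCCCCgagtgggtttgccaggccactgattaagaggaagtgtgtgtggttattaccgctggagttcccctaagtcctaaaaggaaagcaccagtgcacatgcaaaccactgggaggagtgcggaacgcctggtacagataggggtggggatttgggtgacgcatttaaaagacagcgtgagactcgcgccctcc
TNFAIP3, chr6:137867009-137867258, plus strand: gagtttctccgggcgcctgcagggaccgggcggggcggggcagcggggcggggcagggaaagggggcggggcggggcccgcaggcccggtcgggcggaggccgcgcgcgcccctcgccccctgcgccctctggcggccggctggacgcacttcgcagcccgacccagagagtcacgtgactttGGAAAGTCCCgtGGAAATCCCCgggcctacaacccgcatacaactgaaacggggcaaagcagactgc
NFKBIA, chr14:35404750-35404999, minus strand: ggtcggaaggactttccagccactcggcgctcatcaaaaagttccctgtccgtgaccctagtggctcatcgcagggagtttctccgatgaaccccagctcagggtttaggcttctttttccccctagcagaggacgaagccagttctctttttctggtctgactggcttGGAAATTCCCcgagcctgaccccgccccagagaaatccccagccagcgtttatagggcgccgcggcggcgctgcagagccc

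Distances are counted from the RefSeq start, which can differ from the edge of the GENCODE gene span given further on. The RefSeq start lay 285 bases inside that span for ICAM1, 71 for TNFAIP3, 53 for REL, 34 for BIRC3 and 30 for NFKB1, and at its edge for NFKBIA. The matches shown for ICAM1, TNFAIP3, REL and NFKB2 therefore lie inside the GENCODE span, and those for BIRC3, NFKBIA and NFKB1 before it. The ICAM1 match began 186 bases before the RefSeq start, that of BIRC3 199 bases and that of NFKBIA 81 bases. TNFAIP3 had a pair of matches, beginning 67 and 55 bases before its start. BIRC3 and the second match of TNFAIP3 shared the same letters, GGAAATCCCC. For the subunit genes, 1 match in each window that held the consensus is shown with 8 bases on either side, to set their letters beside those above. The first NFKB2 match reads the same on both strands.
NFKB1, chr4:102501310-102501319 in capitals: acgtcagtGGGAATTTCCagccagga
NFKB2, chr10:102394471-102394480 in capitals: aacgtcatGGGAATTCCCccctccgg
NFKB2, chr10:102395684-102395693 in capitals: gtattttcGGGACTTTCCtaagctgc
REL, chr2:60881528-60881537 in capitals: cagccgcgGGAAATTCCCctcccgcc
These are letters of the reference genome, and binding was not measured.

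The largest differences among the 10 genes were those of ICAM1, BIRC3 and TNFAIP3, whose means were lower with curcumin, with or without CuCl2, than with palmitic acid alone. None of the 9 tested members passed the test in any comparison (limma across 13443 genes, Benjamini-Hochberg adjusted p at most 0.05). ICAM1 with curcumin came nearest, at a limma adjusted p = 0.0503. All 9 had a negative difference from palmitic acid alone with curcumin and CuCl2, where 56.2% of all genes did, and all 9 with curcumin, where 53.7% of all genes did. Differences are given in log2(TPM + 1), a scale on which changes of low genes come out too small.

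**Figure D1:**
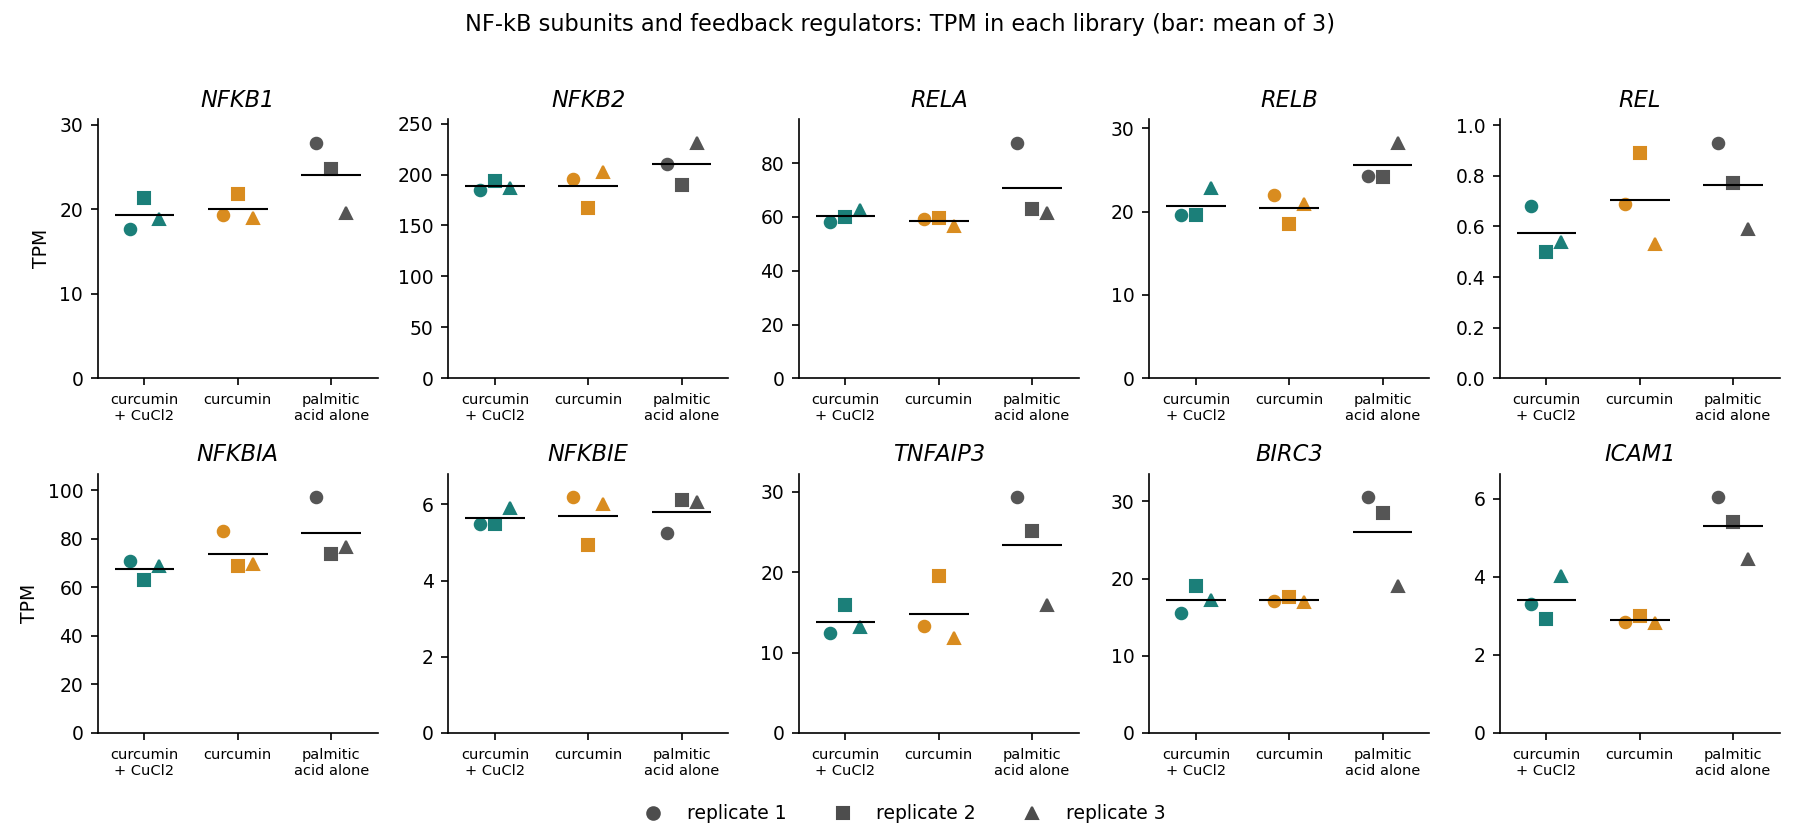
TPM of each of the 10 genes (vertical axis, from 0) in the 3 libraries of each group (horizontal axis), with 1 marker shape per replicate and a bar at the mean of 3. ICAM1, BIRC3 and RELB were lower in every library with curcumin, with or without CuCl2, than in every library with palmitic acid alone. Within palmitic acid alone, replicate 3 was the lowest library for TNFAIP3, BIRC3, NFKB1, ICAM1, RELA and REL, and the highest for NFKB2 and RELB.

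ICAM1 encodes a cell surface molecule that leukocytes bind and is a textbook NF-kB target. The gene spans chr19:10270835-10286615 (plus strand), as GENCODE release 29 on GRCh38 places it and the genes that follow. ICAM1 had 3.29, 2.91 and 4.01 TPM with curcumin and CuCl2, 2.83, 2.99 and 2.82 TPM with curcumin, and 6.03, 5.39 and 4.46 TPM with palmitic acid alone. Every library with curcumin was below every library with palmitic acid alone, and the 3 with curcumin and no CuCl2 lay close together. The mean was 35.7% lower with curcumin and CuCl2 than with palmitic acid alone, a difference of -0.52 (SE 0.15, limma adjusted p = 0.135). With curcumin it was 45.6% lower, a difference of -0.69 (SE 0.15, limma adjusted p = 0.0503). By p-value ICAM1 ranked 265 of 13443 genes with curcumin, where 264 genes passed. At the 23.4 percentile of the tested genes, it was a low transcript.

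The ICAM1 call with curcumin turned on the settings. ICAM1 passed with a pseudocount of 0.1 (limma adjusted p = 0.0495, 1.15% of all genes lower), with a pseudocount of 5 (0.0471, 1.24%), with median-of-ratios scaling (0.0281, 1.34%) and without the variance trend (0.632% lower). With median-of-ratios scaling BIRC3 passed as well (limma adjusted p = 0.0487). ICAM1 also passed when replicate 3 of palmitic acid alone was left out (0.0247), and with the mitochondrial covariate described further on, 6 of 18 alternatives in all. In the other 12 it did not pass, with a limma adjusted p = 0.0605 to 0.182. Among those 12 were the fit without a filter (0.121), the fit of only the 2 groups compared (0.166) and the fit with a replicate block (0.0986).

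BIRC3 encodes a ubiquitin ligase that inhibits cell death and carries signals from tumour necrosis factor receptors, and NF-kB raises its transcription. The gene spans chr11:102317450-102339403 (plus strand). BIRC3 had 15.47, 18.97 and 17.16 TPM with curcumin and CuCl2, 17.12, 17.59 and 16.95 TPM with curcumin, and 30.50, 28.43 and 19.06 TPM with palmitic acid alone. The groups did not overlap, but replicate 3 of palmitic acid alone lay just above the highest library with curcumin and CuCl2, far from replicates 1 and 2 of its own group. The difference was -0.55 with curcumin and CuCl2 (SE 0.16, limma adjusted p = 0.144) and -0.54 with curcumin (SE 0.16, limma adjusted p = 0.143). Without that replicate 3 it was -0.75 with curcumin and CuCl2 (limma adjusted p = 0.00936, 2.62% of all genes lower) and -0.74 with curcumin (limma adjusted p = 0.00881, 3.05% of all genes lower). With any other library left out it did not pass, at -0.62 to -0.42 with curcumin and CuCl2 (limma adjusted p = 0.174 to 0.428) and -0.55 to -0.42 with curcumin (limma adjusted p = 0.199 to 0.361). BIRC2, a paralog that could share reads with BIRC3, had a difference of -0.24 with curcumin and CuCl2 (limma adjusted p = 0.558) and -0.25 with curcumin (limma adjusted p = 0.533).

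TNFAIP3 encodes the ubiquitin-editing enzyme that shuts NF-kB signalling down. The gene spans chr6:137867188-137883312 (plus strand). TNFAIP3 had 12.48, 15.88 and 13.23 TPM with curcumin and CuCl2, 13.32, 19.47 and 11.77 TPM with curcumin, and 29.31, 25.10 and 15.93 TPM with palmitic acid alone. Replicate 2 of curcumin was above replicate 3 of palmitic acid alone, so those groups overlapped, while the libraries with CuCl2 all stayed narrowly below palmitic acid alone. The mean was 40.9% lower with curcumin and CuCl2, a difference of -0.68 (SE 0.23, limma adjusted p = 0.215), and 36.7% lower with curcumin, a difference of -0.61 (SE 0.23, limma adjusted p = 0.267). Its SE was the largest of the tested members. Without replicate 3 of palmitic acid alone the difference was -0.93 with curcumin and CuCl2 (limma adjusted p = 0.0394) and -0.86 with curcumin (limma adjusted p = 0.0471). With any other library left out TNFAIP3 did not pass, at -0.78 to -0.51 with curcumin and CuCl2 (limma adjusted p = 0.165 to 0.531) and -0.81 to -0.44 with curcumin (limma adjusted p = 0.163 to 0.584). The antisense gene AL357060.1 overlaps TNFAIP3 and averaged 1.14 TPM, and whether strand was used in counting is not given in the sources used here.

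NFKBIA encodes IκBα, the inhibitor that is degraded and remade in each cycle of activation. The gene spans chr14:35401511-35404749 (minus strand). NFKBIA had 70.97, 63.08 and 68.77 TPM with curcumin and CuCl2, 83.42, 68.65 and 69.84 TPM with curcumin, and 97.13, 73.67 and 76.55 TPM with palmitic acid alone. The libraries with CuCl2 were all below those with palmitic acid alone, and those with curcumin overlapped them. The difference was -0.27 with curcumin and CuCl2 (SE 0.12, limma adjusted p = 0.343) and -0.15 with curcumin (SE 0.12, limma adjusted p = 0.664). Replicate 1 was the highest library of palmitic acid alone, and without it the difference was -0.15 with curcumin and CuCl2 and -0.03 with curcumin. Over 19 alternatives the NFKBIA difference ranged from -0.35 to -0.15 with curcumin and CuCl2 and from -0.24 to -0.03 with curcumin, none past the threshold. NFKBIE encodes the related inhibitor IκBε and spans chr6:44258166-44265788 (minus strand). NFKBIE ranged from 5.49 to 5.91 TPM with curcumin and CuCl2, from 4.92 to 6.18 TPM with curcumin and from 5.24 to 6.10 TPM with palmitic acid alone. The 3 groups overlapped, and its differences were the smallest of the 9. They were -0.04 with curcumin and CuCl2 (95% interval -0.31 to 0.24) and -0.02 with curcumin (95% interval -0.30 to 0.25).

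Among the subunit genes, RELB encodes the partner of the NFKB2 product in the slower branch. The gene spans chr19:45001430-45038198 (plus strand). RELB had 19.58, 19.56 and 22.87 TPM with curcumin and CuCl2, 22.04, 18.55 and 20.88 TPM with curcumin, and 24.25, 24.18 and 28.26 TPM with palmitic acid alone. The curcumin groups did not overlap palmitic acid alone, where replicate 3 was the highest library for RELB and the lowest for BIRC3 and TNFAIP3. The difference was -0.29 with curcumin and CuCl2 (SE 0.11, limma adjusted p = 0.248) and -0.31 with curcumin (SE 0.11, limma adjusted p = 0.217).

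RELA encodes the main transactivating subunit and spans chr11:65653596-65663094 (minus strand). RELA had 58.27, 60.15 and 62.69 TPM with curcumin and CuCl2, 59.21, 59.56 and 56.58 TPM with curcumin, and 87.58, 62.82 and 61.54 TPM with palmitic acid alone. Replicate 1 of palmitic acid alone was far above all others, and the other 2 libraries of that group were close to those with curcumin. The difference was -0.20 with curcumin and CuCl2 (SE 0.12, limma adjusted p = 0.532) and -0.25 with curcumin (SE 0.12, limma adjusted p = 0.417). Without that replicate 1 it was -0.04 with curcumin and CuCl2 and -0.09 with curcumin. Over 19 alternatives the RELA difference ranged from -0.29 to -0.04 with curcumin and CuCl2 and from -0.34 to -0.09 with curcumin, none past the threshold. The antisense gene AP001362.2 overlaps RELA, at a mean of 2.12 TPM.

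NFKB1 (chr4:102501329-102617302, plus strand) encodes the precursor of the usual partner of RELA. NFKB1 had 17.71, 21.34 and 18.87 TPM with curcumin and CuCl2, 19.30, 21.80 and 18.96 TPM with curcumin, and 27.85, 24.80 and 19.57 TPM with palmitic acid alone. Replicate 3 of palmitic acid alone lay among the libraries with curcumin. The difference was -0.29 with curcumin and CuCl2 (SE 0.13, limma adjusted p = 0.381) and -0.24 with curcumin (SE 0.13, limma adjusted p = 0.481). Without replicate 1 of palmitic acid alone it was -0.19 with curcumin and CuCl2 and -0.13 with curcumin. Without replicate 3 of palmitic acid alone it was -0.38 with curcumin. Over 19 alternatives the NFKB1 difference ranged from -0.43 to -0.19 with curcumin and CuCl2 and from -0.38 to -0.13 with curcumin, none past the threshold. NFKB2 (chr10:102394110-102402529, plus strand) encodes the precursor subunit of the slower branch. NFKB2 ranged from 185 to 193 TPM with curcumin and CuCl2, from 168 to 203 TPM with curcumin and from 190 to 231 TPM with palmitic acid alone. The groups overlapped, with a difference of -0.15 with curcumin and CuCl2 (SE 0.09, limma adjusted p = 0.522) and -0.16 with curcumin (SE 0.09, limma adjusted p = 0.503). Without replicate 3 of palmitic acid alone it was -0.09 with curcumin and CuCl2 and -0.09 with curcumin, and without replicate 2 of curcumin it was -0.08 with curcumin. Over 19 alternatives the NFKB2 difference ranged from -0.23 to -0.09 with curcumin and CuCl2 and from -0.23 to -0.08 with curcumin, none past the threshold. REL, the gene of a subunit best known from lymphoid cells, spans chr2:60881521-60931610 (plus strand). REL ranged from 0.500 to 0.680 TPM with curcumin and CuCl2, from 0.530 to 0.890 TPM with curcumin and from 0.590 to 0.930 TPM with palmitic acid alone, and was not tested. AC010733.2, a gene on the same strand, overlaps REL and averaged 3.20 TPM.

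**Figure D2:**
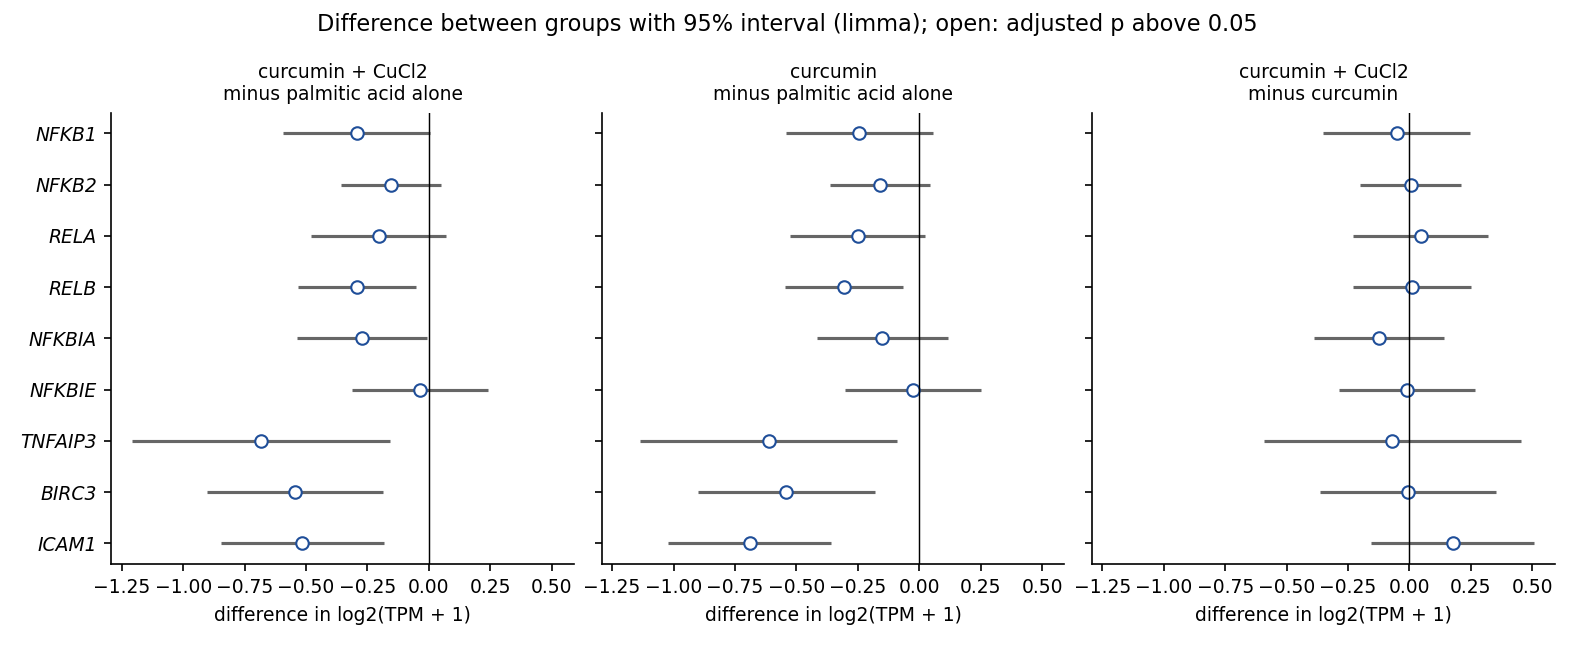
Difference in log2(TPM + 1) (horizontal axis) for the 9 tested genes in the 3 comparisons, with 95% intervals from limma over all 9 libraries. Every circle is open, meaning an adjusted p above 0.05, and the intervals of ICAM1, BIRC3, TNFAIP3 and RELB lie below 0 in both comparisons with palmitic acid alone.

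With curcumin and CuCl2, 0 of 9 members passed against palmitic acid alone in limma, where 1.44% of all genes passed, 0.9% lower and 0.543% higher. At an unadjusted p under 0.05, 5 members were lower (ICAM1, BIRC3, TNFAIP3, RELB and NFKBIA), beside 7.97% of all genes. That count was 2 without replicate 1 of curcumin and CuCl2 (5.36% of all genes) and 3 without replicate 1 of palmitic acid alone (5.75% of all genes). With all libraries, the same 5 were lower without overlap between groups, beside 10.3% of all genes. With curcumin, 0 of 9 passed in limma, where 1.96% of all genes passed, 1.21% lower and 0.759% higher. At an unadjusted p under 0.05, 4 members were lower (ICAM1, BIRC3, TNFAIP3 and RELB), beside 7.79% of all genes. Without overlap, 4 were lower (ICAM1, BIRC3, RELB and RELA), beside 8.61% of all genes. The median difference of the 9 was -0.29 with curcumin and CuCl2, beside -0.03 over all genes, and -0.25 with curcumin, beside -0.02. Both comparisons use the same 3 libraries with palmitic acid alone.

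Curcumin with CuCl2 was set against curcumin for the difference that goes with copper. None of the 9 members passed (limma adjusted p = 1 for each), and none had an unadjusted p under 0.05, where 1.6% of all genes did. Of all genes tested, 0% passed. All 9 members overlapped between the groups, while 3.61% of all genes were lower and 2.63% higher without overlap. ICAM1 had the largest difference, 0.18, with a 95% interval of -0.16 to 0.51. NFKBIA followed at -0.12, with an interval of -0.39 to 0.14. The widest interval was that of TNFAIP3, -0.59 to 0.45, and the narrowest that of NFKB2, -0.20 to 0.21. With 3 libraries a group, the values are compatible with any difference inside these intervals.

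NFKB2 was the most abundant of the 10, with 196 TPM averaged across all 9 libraries and the 94.4 percentile of the tested genes, then NFKBIA at 74.7 TPM and RELA at 63.2 TPM. Each of these was above the next gene in 9 of 9 libraries. RELB (22.2 TPM), NFKB1 (21.1 TPM), BIRC3 (20.1 TPM) and TNFAIP3 (17.4 TPM) formed a middle group whose order was not fixed. RELB was above NFKB1 in 5 of 9 libraries, NFKB1 above BIRC3 in 7 and BIRC3 above TNFAIP3 in 8. NFKBIE (5.71 TPM) was above ICAM1 (3.86 TPM) in 8 of 9 libraries, and REL was the lowest in all 9.

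The summed TPM of the 5 subunit genes was 289 ± 6.99 with curcumin and CuCl2, 288 ± 17.2 with curcumin and 332 ± 25.6 with palmitic acid alone (SD, n = 3 each). The highest sum was 295 with curcumin and CuCl2 and 299.6 with curcumin, both below the lowest with palmitic acid alone, 303. The sums were not tested. NFKB2 held 65.1 ± 0.957% of the sum with curcumin and CuCl2, 65.3 ± 2.65% with curcumin and 63.5 ± 3.96% with palmitic acid alone. RELA held 20.9 ± 0.554% with curcumin and CuCl2, 20.4 ± 1.69% with curcumin and 21.3 ± 3.48% with palmitic acid alone. The make-up of the sum was thus led by the same pair of genes in every group. RELB held 7.14 ± 0.621% with curcumin and CuCl2, 7.11 ± 0.287% with curcumin and 7.73 ± 0.724% with palmitic acid alone. NFKB1 held 6.67 ± 0.505% with curcumin and CuCl2, 6.99 ± 0.989% with curcumin and 7.29 ± 1.35% with palmitic acid alone. REL held at most 0.332% in any library. Over 15 comparisons of shares the two-sided exact permutation p was 0.3 to 0.9 and the Benjamini-Hochberg adjusted p = 0.9 for each, in a design whose smallest possible p is 0.1. NFKBIA stood at 1.12 ± 0.0871 times RELA with curcumin and CuCl2, 1.27 ± 0.131 times with curcumin and 1.18 ± 0.0675 times with palmitic acid alone.

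**Figure D3:**
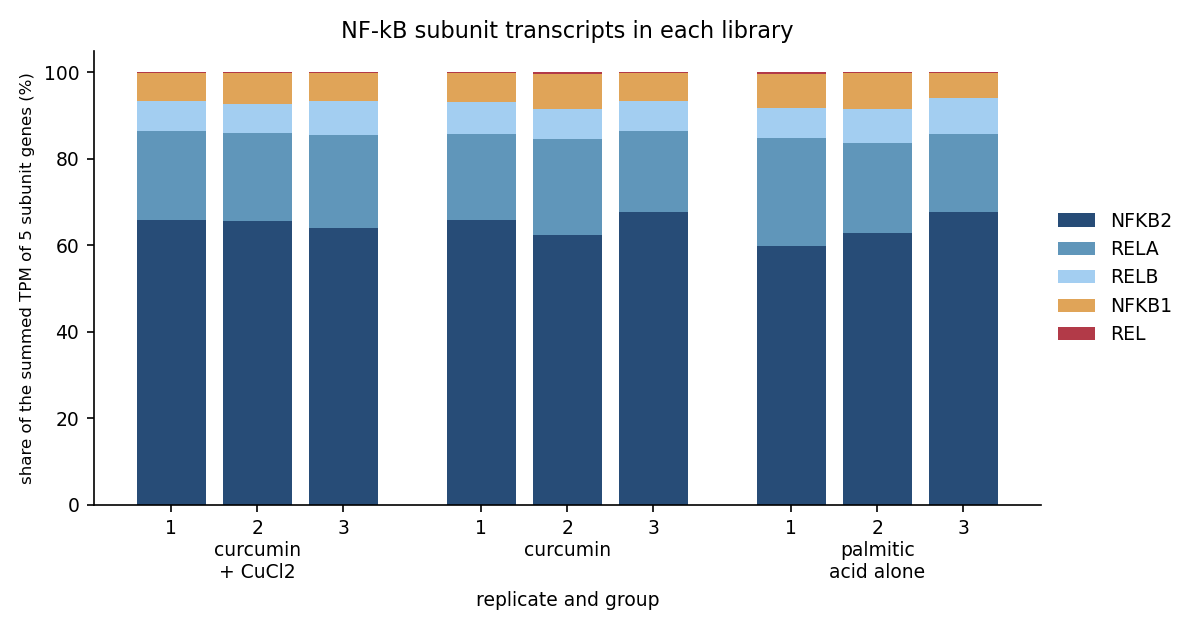
Share of each subunit gene in the summed TPM of the 5 subunit genes (vertical axis, percent) in each of the 9 libraries, grouped by treatment (horizontal axis). NFKB2 holds between 59.9% and 67.8% of the sum, and both ends of that range are libraries with palmitic acid alone.

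The libraries also differed in the share of mitochondrial transcripts. Genes of the mitochondrial genome held 10.70%, 11.83% and 11.44% of the TPM with curcumin and CuCl2, 10.43%, 12.39% and 10.87% with curcumin, and 12.98%, 12.47% and 10.08% with palmitic acid alone. NFKB1, TNFAIP3 and BIRC3 were highest, within each of the 3 groups, in the library with the largest mitochondrial share. These were 3 of 9 tested members (33.3%), a share near the 23.9% of all tested genes, and no result about the members is read from it. NFKBIE was lowest in those 3 libraries, though tied at 5.49 TPM with replicate 1 in the group with curcumin and CuCl2. The share of all genes lowest there was not counted, so nothing is read from this either. The mitochondrial share was taken from the same TPM values, and whether it followed treatment was not tested. With it as a covariate, ICAM1, BIRC3, TNFAIP3 and RELB were lower with curcumin and CuCl2, where 5.02% of all genes were. The same 4 were lower with curcumin, where 4.78% of all genes were. Of all genes, 1436 then passed with curcumin and CuCl2, beside 194 without the covariate, and 1505 with curcumin, beside 264. In that fit ICAM1 had a difference of -0.47 with curcumin and CuCl2 (limma adjusted p = 0.0430) and -0.64 with curcumin (limma adjusted p = 0.0149). TNFAIP3 had -0.53 with curcumin and CuCl2 (limma adjusted p = 0.00954) and -0.44 with curcumin (limma adjusted p = 0.0198).

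**Figure D4:**
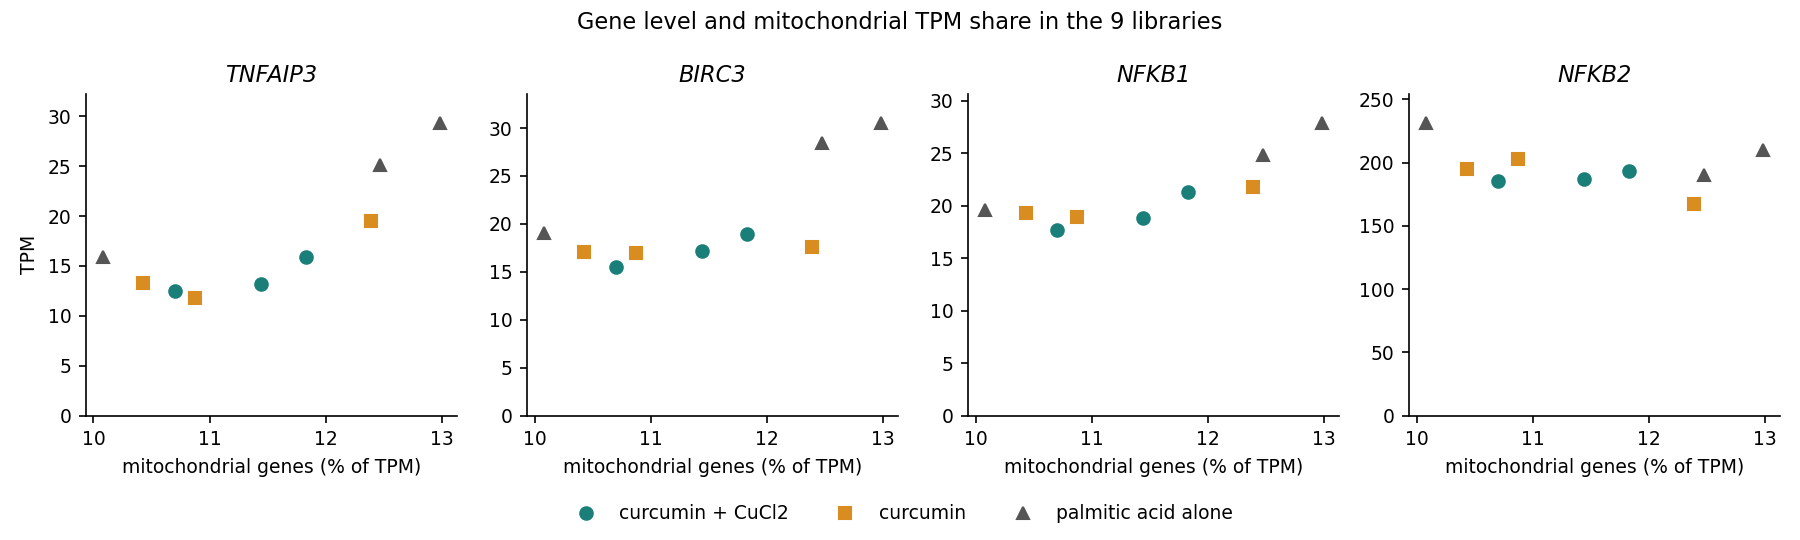
TPM of TNFAIP3, BIRC3, NFKB1 and NFKB2 (vertical axis, from 0) against the share of mitochondrial genes in the TPM of each library (horizontal axis, percent), with 1 point per library. Replicate 3 of palmitic acid alone, at 10.08%, has TNFAIP3, BIRC3 and NFKB1 near the levels of the libraries with curcumin and NFKB2 above them.

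The rest of the pathway was read from 7 lists. Among 9 other inhibitors none passed, with a median difference of -0.11 with curcumin and CuCl2 and -0.13 with curcumin. BCL3, the gene of a nuclear IκB relative, had -0.43 with curcumin and CuCl2 (limma adjusted p = 0.310) and -0.36 with curcumin (limma adjusted p = 0.409). NFKBIZ, the gene of another, had -0.27 with curcumin and CuCl2 (limma adjusted p = 0.785) and -0.37 with curcumin (limma adjusted p = 0.666). Among 11 tested deubiquitinases and TNFAIP3 partners, none passed with curcumin and CuCl2 (median -0.11) and 1 fell with curcumin (median -0.07), where 1.21% of all genes were lower. This was TNIP1, whose product binds that of TNFAIP3 and restrains NF-kB. TNIP1 had 37.37, 36.29 and 37.57 TPM with curcumin and CuCl2, 38.59, 34.34 and 37.22 TPM with curcumin, and 52.74, 46.15 and 46.42 TPM with palmitic acid alone. All 6 libraries with curcumin were below all 3 with palmitic acid alone. The difference was -0.37 with curcumin and CuCl2 (SE 0.08, limma adjusted p = 0.0618) and -0.39 with curcumin (SE 0.08, limma adjusted p = 0.0465).

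All 13 kinase genes were tested and none passed, with a median of 0.04 with curcumin and CuCl2 and 0.08 with curcumin. TBK1, a kinase gene of innate immune signalling, had 0.25 with curcumin and CuCl2 (limma adjusted p = 0.429) and 0.45 with curcumin (limma adjusted p = 0.118). MAP3K8 had -0.05 with curcumin and CuCl2 (limma adjusted p = 0.952) and -0.26 with curcumin (limma adjusted p = 0.575). Of 18 tested adaptors and ubiquitin ligases none passed, with a median of -0.12 with curcumin and CuCl2 and -0.10 with curcumin. MALT1, the gene of a signalling protease, had -0.27 with curcumin and CuCl2 (limma adjusted p = 0.555) and -0.40 with curcumin (limma adjusted p = 0.307). TICAM1, the gene of a Toll-like receptor adaptor, had -0.23 with curcumin and CuCl2 (limma adjusted p = 0.236) and -0.30 with curcumin (limma adjusted p = 0.111).

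Of 16 receptor genes, 6 were tested. None passed with curcumin and CuCl2 (median 0.06), and 2 rose and 1 fell with curcumin (median 0.08), where 0.759% of all genes were higher and 1.21% lower. TNFRSF1A, the main receptor gene for tumour necrosis factor, had 88.40, 89.05 and 94.11 TPM with curcumin and CuCl2, 96.19, 91.70 and 92.41 TPM with curcumin, and 77.96, 73.26 and 68.95 TPM with palmitic acid alone. LTBR, the gene of the lymphotoxin beta receptor that feeds the slower branch, had 92.74, 93.84 and 91.09 TPM with curcumin and CuCl2, 100.2, 93.21 and 100.01 TPM with curcumin, and 80.44, 72.11 and 76.04 TPM with palmitic acid alone. For both genes every library with curcumin was above every library with palmitic acid alone. TNFRSF1A had a difference of 0.30 with curcumin and CuCl2 (limma adjusted p = 0.0717) and 0.35 with curcumin (limma adjusted p = 0.0388). LTBR had 0.28 with curcumin and CuCl2 (limma adjusted p = 0.0787) and 0.36 with curcumin (limma adjusted p = 0.0298). TNFRSF12A, the receptor gene for the cytokine TWEAK, was the gene that fell. It had 283.58, 286.40 and 278.49 TPM with curcumin and CuCl2, 312.92, 266.55 and 275.13 TPM with curcumin, and 341.38, 368.89 and 408.32 TPM with palmitic acid alone. Its difference was -0.39 with curcumin and CuCl2 (limma adjusted p = 0.0537) and -0.39 with curcumin (limma adjusted p = 0.0498). These adjusted p-values lie just on either side of the threshold, so the calls do not set the treatments apart. For the genes of the lists, TNIP1 among them, calls were not followed through the alternative settings.

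Of 11 ligand genes, 3 were tested and none passed, with a median of -0.01 with curcumin and CuCl2 and -0.10 with curcumin. TNF and IL1B were under 1 TPM. IL1A, an inflammatory cytokine gene, had -0.36 with curcumin and CuCl2 (limma adjusted p = 0.418) and -0.35 with curcumin (limma adjusted p = 0.422). TNFSF12, the gene of TWEAK, had -0.01 with curcumin and CuCl2 (limma adjusted p = 0.996) and -0.10 with curcumin (limma adjusted p = 0.888).

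Other NF-kB target genes had a median of -0.41 with curcumin and CuCl2 and of -0.41 with curcumin, over 20 tested of 28. With curcumin and CuCl2 5 of the 20 were lower, where 0.9% of all genes were, and 0 were higher. With curcumin 6 of the 20 were lower, where 1.21% of all genes were, and 0 were higher. As the list was drawn up with earlier results of these data known, these counts are not an independent comparison with all genes. IL6, an inflammatory cytokine gene, had 70.52, 66.84 and 64.30 TPM with curcumin and CuCl2, 65.80, 63.57 and 62.61 TPM with curcumin, and 168.89, 155.05 and 142.68 TPM with palmitic acid alone. The groups were far apart, and IL6 fell by 1.20 on the log2 scale with curcumin and CuCl2 (limma adjusted p = 0.000143) and by 1.27 with curcumin (limma adjusted p = 8.55e-05). The cytokine gene IL32 fell by 1.16 with curcumin and CuCl2 (limma adjusted p = 0.00800) and by 1.24 with curcumin (limma adjusted p = 0.00531). The chemokine gene CCL5 fell by 0.88 with curcumin and CuCl2 (limma adjusted p = 0.0212) and by 0.73 with curcumin (limma adjusted p = 0.0389). The complement gene C3 fell by 0.74 with curcumin and CuCl2 (limma adjusted p = 0.00796) and by 0.76 with curcumin (limma adjusted p = 0.00640). The others that passed were IER3 in both comparisons and GADD45B with curcumin, a pair named after their values were seen. The κB consensus motif stood in 38.7% of 31 promoter windows of these target genes, beside 7.73% of all windows. It stood in 33.3% of 18 windows of the other inhibitors, 30.8% of 13 windows of the ligands and 27.8% of 18 windows of the deubiquitinases and TNFAIP3 partners. For the adaptors and ubiquitin ligases it was 11.1% of 27 windows, for the kinases 5.56% of 18 and for the receptors 0% of 16. The lists were drawn up from known roles, known targets of NF-kB among them, and some genes had several windows. These shares are therefore not an independent comparison with all windows.

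**Figure D5:**
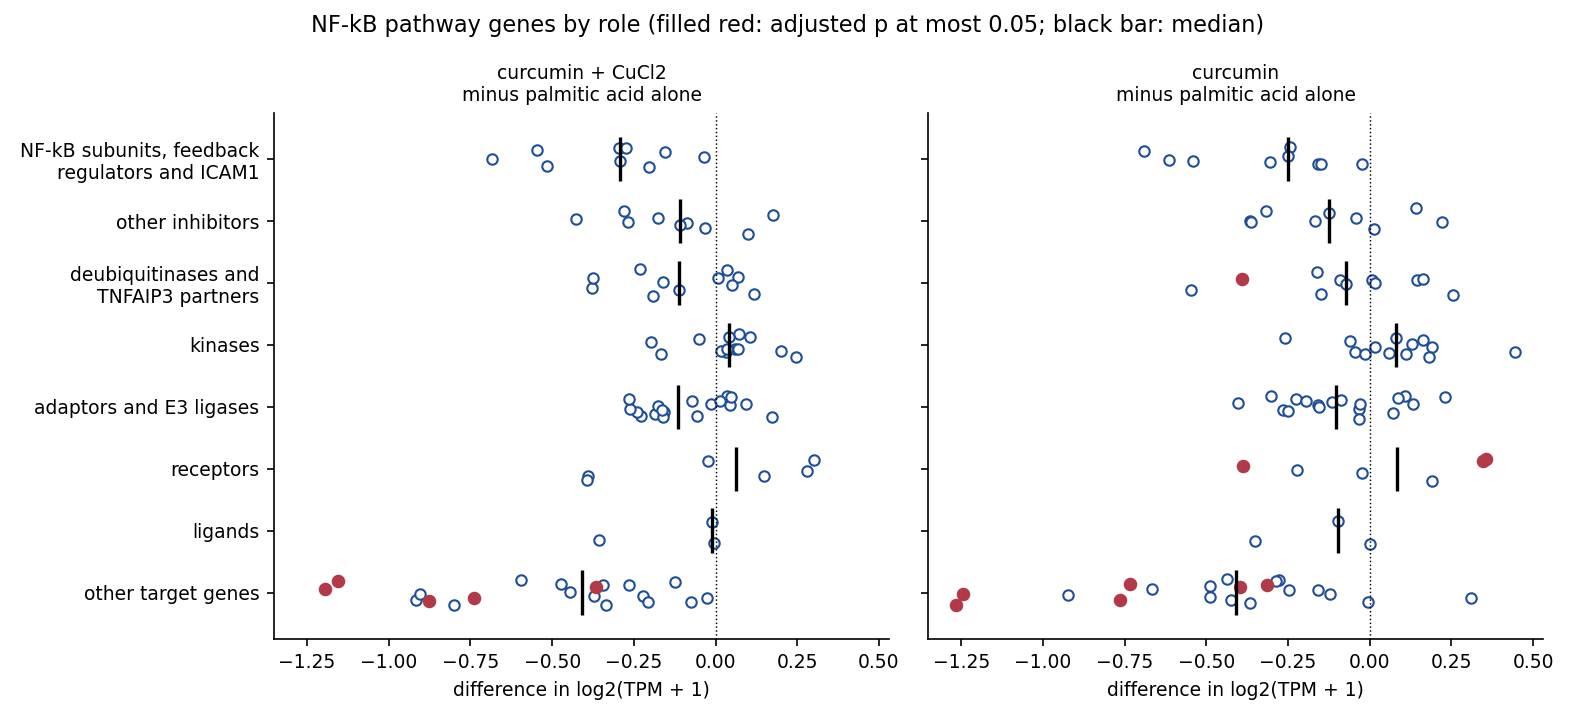
Difference in log2(TPM + 1) from palmitic acid alone (horizontal axis) for each tested gene of the pathway, in rows by role, for curcumin with CuCl2 (left) and curcumin (right). Filled red points passed the test and black bars are medians. The 9 tested members lie between -0.69 and -0.02 with none filled.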

How the data were processed

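The authors deposited TPM values in 1 table of 62703 genes by 9 libraries, scaled to the same total in each, so depth is unknown and no count test or counting interval applies. The submitters' processing notes name HISAT2 2.1.0, RSEM 1.3.3 and GRCh38.p13, with no role or order. A stranded mRNA kit was used, per the labels' protocols. The annotation release is not given in the sources used here.

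TPM was log2-transformed after adding 1. A mean of 1 TPM over the 9 libraries was required, which left 13443 genes holding 99.7% of the TPM. Group means were fitted over all 9 libraries with limma 3.58.1 in R 4.3.3, using a variance trend, two-sided tests and Benjamini-Hochberg adjustment over all these genes at 0.05. Shares were compared by exact permutation. Named were all members and, from each list, up to 4 passing genes per comparison by size of difference, or the 2 largest with curcumin where none passed. BIRC2, IER3 and GADD45B were added. Members and lists were chosen with earlier results of these data known, and 19 alternatives were run. Positions are from GENCODE release 29 and promoters from RefSeq. Plots were made in Python 3.11.15 using matplotlib 3.10.9.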

Additional observations from a re-analysis of the deposited data

How the results depend on the processing

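Against palmitic acid alone, the count of members past the limma test stayed at 0 under 17 of 19 alternatives with curcumin and CuCl2, and under 13 of 19 with curcumin. With curcumin and CuCl2 it was 4 with mitochondrial share as a covariate, and 0 to 2 when 1 library was left out. The 2 were TNFAIP3 and BIRC3, without replicate 3 of palmitic acid alone. With curcumin it was 1 (ICAM1) at a pseudocount of 0.1, at a pseudocount of 5 and without the variance trend, 2 (ICAM1 and BIRC3) with median-of-ratios scaling, 4 with the covariate, and 0 to 3 when 1 library was left out. The 3 were TNFAIP3, BIRC3 and ICAM1, without replicate 3 of palmitic acid alone. The cause was not tested. Curcumin with CuCl2 against curcumin gave 0 in all 19. The difference of ICAM1 ranged from -0.62 to -0.29 with curcumin and CuCl2 and from -0.85 to -0.38 with curcumin; at a minimum of 5 TPM it was not tested. Against palmitic acid alone, 8 of 9 members kept their sign in every alternative that tested them, NFKBIE being the exception. The filters, the variance trend, the replicate block and the fit of only the 2 groups compared leave a difference as it was. So does leaving out a library of the group not compared. In these alternatives the sign was fixed in advance. The number of all genes passing with curcumin and CuCl2 was 65 with only the 2 groups compared, 114 without a filter and 1436 with the covariate, beside 194. With curcumin it was 35 with only the 2 groups compared, 104 without a filter and 1505 with the covariate, beside 264. With 1 library left out it ranged from 46 (without replicate 1 or replicate 3 of curcumin and CuCl2) to 527 (without replicate 3 of palmitic acid alone) with curcumin and CuCl2, and from 54 (without replicate 3 of curcumin) to 619 (without replicate 3 of palmitic acid alone) with curcumin.

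No pairing by replicate number was seen: deviations of same-numbered libraries correlated between -0.27 and 0.25, and 3 of 9 libraries correlated best with their own number. With 3 libraries a group, these values cannot tell whether cultures or batches were paired. With a replicate block 0 members passed in each comparison, and 147 genes passed with curcumin and CuCl2 and 177 with curcumin. TPM holds no depth, so how few reads lie behind low genes such as REL and ICAM1 is unknown.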
